A study of Mus musculus with 11 samples.

Results

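Small noncoding RNA genes and the long nuclear RNA Malat1 were followed in dendritic cells of the mouse spleen, in animals carrying a mutant uromodulin allele and in their wild type littermates. The deposited table has 417 gene rows, and 10 of them are described here by symbol. Of these rows, 4 are small nucleolar RNA genes (Snord15a, Snord15b, Snord35a and Snora78), 4 are microRNA genes (Mir684-1, Mir142b, Mir6516 and Mir5133), 1 is the small rodent RNA Rn4.5s and 1 is Malat1. The authors' deposited table kept rows that differed between the genotypes by 2-fold or more, in either direction, with an unadjusted p under 0.05. The 10 genes were therefore chosen on that difference, and it is given below as a description with no test. In the authors' deposited table the absolute folds of the 10 genes ran from 2.04 for Mir684-1, nearest to the fold limit, to 137 for Mir142b. Their unadjusted p in the authors' deposited table ran from 0.00156 for Malat1 to 0.0336 for Snora78, nearest to the p limit, and rows outside these limits were not analysed here.

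The mutant mice were C57BL/6J with 1 copy of Umod changed from cysteine to phenylalanine by CRISPR knock-in in embryos (heterozygous C105F/+, 5 libraries, replicates 2 to 6; 1 label field writes C106F). The wild type littermates were homozygous for the normal allele (6 libraries, replicates 1 to 6), and all mice were killed at 12 to 16 weeks. Uromodulin is made by the kidney tubule, and the series asks how its mutant form bears on dendritic cells and on repair after ischemic kidney injury. Sex, batch, day and injury are not labelled for any mouse. The labels also do not tie each library to its own animal, and p-values below therefore reflect the spread between libraries, which may be technical. Umod has no row, so the genotypes were not checked from it. Dendritic cells had been enriched by removing other cells, and of 12 dendritic cell markers Itgae alone has a row, so the cell type was not checked from the other 11.

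Small nucleolar RNAs (snoRNAs) are cut out of the introns of host genes and guide chemical changes of ribosomal RNA. The C/D box kind guides methylation of ribose, and the H/ACA box kind guides conversion of uridine to pseudouridine. MicroRNAs are cut from hairpins in longer transcripts and repress messenger RNAs through their seed, the bases near the 5′ end. Neither a mature snoRNA nor a mature microRNA has a poly(A) tail, and both would be largely lost when RNA is bound to oligo(dT) beads, as was done for these directional libraries. Malat1 stays in nuclear speckles. Its 3′ end is made by RNase P cleavage and carries an A-rich tract encoded in the genome in place of an ordinary tail.

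The sequences of 8 of these genes show their class features, the similarity of Snord15a and Snord15b, and the longest run of A in Malat1. The 3 C/D snoRNAs of the table are given as DNA letters from the GENCODE M21 transcripts (GRCm38), with box C (TGATGN) and box D (CTGA) in capitals:
Snord15a: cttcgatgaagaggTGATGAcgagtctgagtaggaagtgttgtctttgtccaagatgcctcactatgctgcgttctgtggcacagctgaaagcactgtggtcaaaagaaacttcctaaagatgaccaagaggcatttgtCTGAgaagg
Snord15b: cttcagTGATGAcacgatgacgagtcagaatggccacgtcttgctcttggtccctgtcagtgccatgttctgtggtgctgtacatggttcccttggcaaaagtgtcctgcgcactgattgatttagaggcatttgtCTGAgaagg
Snord35a: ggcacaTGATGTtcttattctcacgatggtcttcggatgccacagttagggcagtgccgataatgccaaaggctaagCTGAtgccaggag

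All 3 hold both boxes, box C in the first 25 bases and box D in the last 20, searched on the transcribed strand. The same holds for 84 of 98 annotated Snord transcripts of 60 to 200 bases (85.7%) and for 5 of 3470 microRNA and snRNA transcripts of that size (0.144%). Snord15a and Snord15b match at 107 of 162 alignment columns (66.0%) and end in the same 21 bases. The GENCODE transcript of Snora78 is 128 bases long, where RefSeq gives a span of 157 bases. The H/ACA snoRNA is shown as in GENCODE for its ACA, in capitals, which stands 3 bases before the 3′ end:
Snora78: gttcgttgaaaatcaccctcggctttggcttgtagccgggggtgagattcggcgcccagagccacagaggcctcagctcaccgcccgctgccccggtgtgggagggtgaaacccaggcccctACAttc

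The mature microRNAs were taken from RefSeq (GRCm38.p6) and are printed with the seed, bases 2 to 8, in capitals. The 2 products of Mir142 are shown because Mir142b lies on the opposite strand of the same hairpin:
miR-142b: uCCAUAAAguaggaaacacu
miR-142a-5p: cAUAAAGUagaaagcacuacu
miR-142a-3p: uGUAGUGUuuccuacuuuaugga
miR-6516-5p: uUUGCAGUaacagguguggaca
miR-6516-3p: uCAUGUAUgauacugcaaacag
miR-5133: gCUGGAGCugcggcagcgcag

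All 20 bases of miR-142b are complementary to miR-142a-3p. No seed was shared among these microRNAs, and each seed occurred in 1 of the 1738 mature mouse microRNAs in the RefSeq table. Mir684-1 had no entry among these mature microRNAs, and Rn4.5s had no sequence in the references used, so neither is printed. The stretch of Malat1 around its longest run of A, in capitals, is bases 6626 to 6705 of a 6983-base transcript:
Malat1: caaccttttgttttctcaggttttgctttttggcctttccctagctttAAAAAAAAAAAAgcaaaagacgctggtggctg

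The run is 12 bases long (6674 to 6685) and lies 298 bases before the end of the annotated transcript. The longest run of A in the 8 snoRNA and microRNA genes was 1 base in Mir5133, 4 bases in Mir684-1, Snora78, Snord15a and Snord15b, and 3 bases in the others.

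The size factors recovered from the authors' means give relative depth and ran from 0.615 in wild type 1, the shallowest library, to 1.98 in C105F/+ 2, the deepest. Counts divided by these factors are called scaled counts below. Of the 10 genes, 6 had a mean scaled count under 10, against 19.7% of all 417 rows. By mean scaled count Malat1 ranked 2 of 417 and Mir684-1 ranked 148, while the other 8 genes ranked between 288 and 391. FPKM divides by length and so lifts short genes, and by mean FPKM Mir684-1 ranked 21 and Snord15b ranked 100. A single matched transcript length was available for 277 of the 417 rows, and 7 of these were shorter than 200 bases. All 7 are among the 10 genes described here. Mir684-1 and Rn4.5s had no such matched length, and other rows without one were not checked for length.

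**Figure D1:**
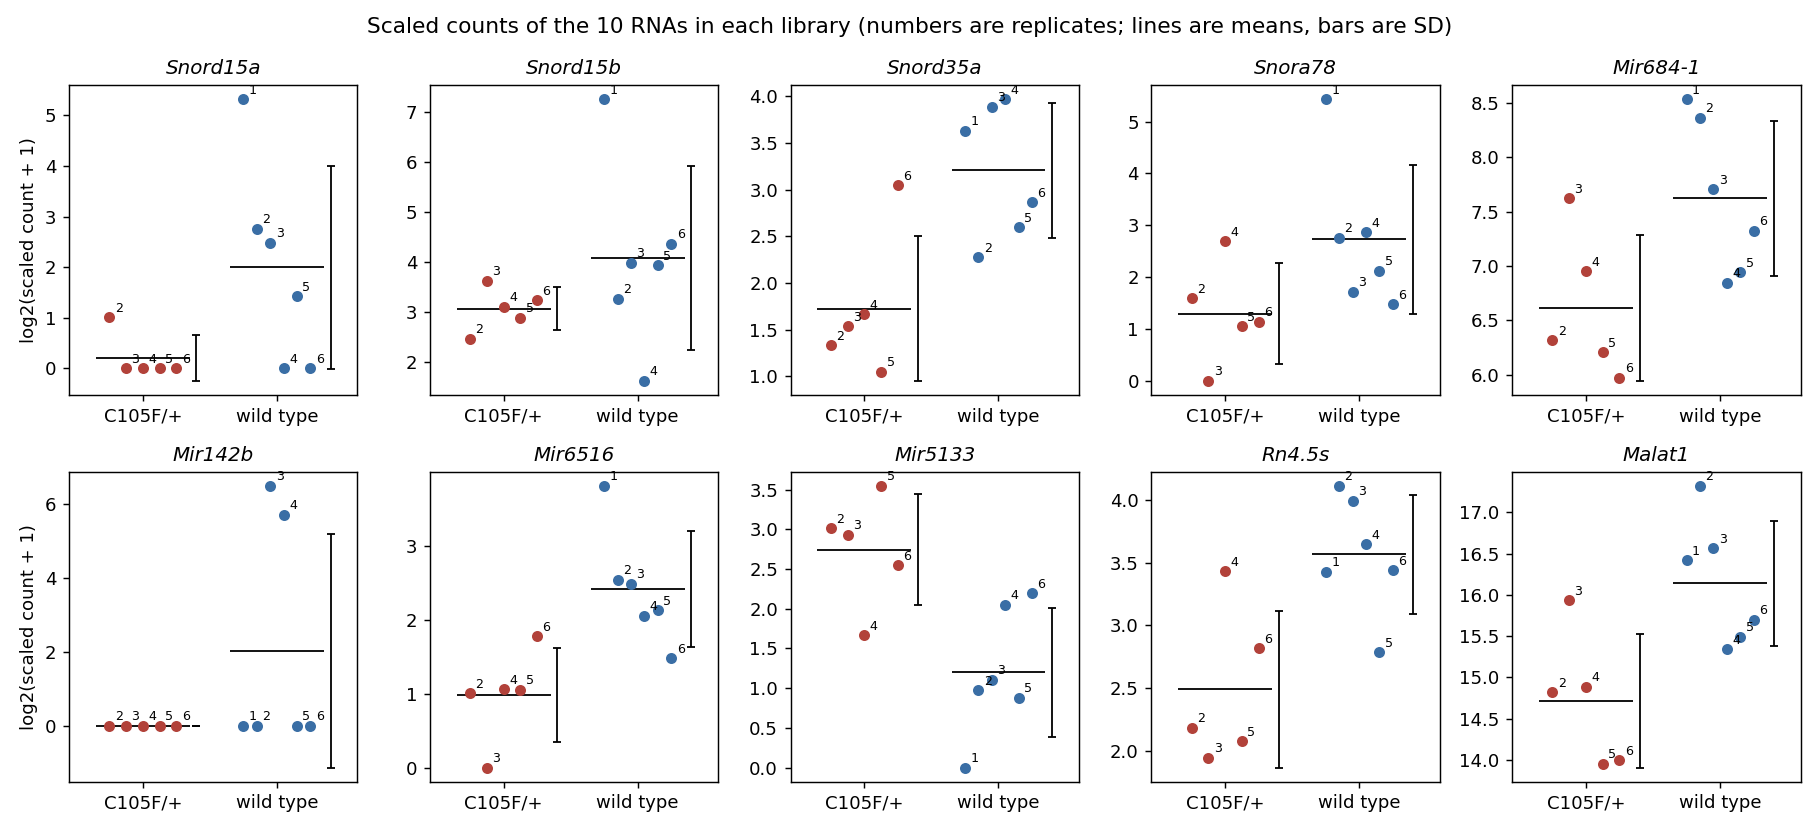
Levels of the 10 genes as log2(scaled count + 1), with C105F/+ (red) left of wild type (blue); points are single libraries numbered by replicate, lines are group means and bars are SD. Malat1 is the highest of the 10 genes in every library, Mir142b has reads in 2 wild type libraries alone, and wild type 1 is the top point for Snord15a, Snord15b, Snora78, Mir684-1 and Mir6516.

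By mean scaled count, 9 of the 10 genes were lower in C105F/+ than in wild type and Mir5133 was higher. Of all 417 rows 39.3% were lower, and since the rows and the 10 genes were chosen on this contrast, nothing is read from the difference between these shares. The median fitted log2 fold change of the 10 genes was -1.89 with no filter on low counts, beside 1.10 for all 417 rows and -1.72 for the 164 lower rows. None of the 10 genes had groups that did not overlap, against 13.4% of all rows in either direction and 3.36% in the lower direction. An adjusted p is given for 3 of the 10 genes in the authors' deposited table. It was under 0.05 for Malat1 (0.0449) and was 0.143 for both Snord15b and Mir684-1, where 37.6% of the 295 rows with an adjusted p were under 0.05, 7.8% counting lower rows alone. These are bulk samples, so fewer cells of a type and less RNA per cell cannot be told apart.

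Snord15b, a C/D snoRNA encoded in an intron of the ribosomal protein gene Rps3 (chromosome 7, 99479563 to 99479707, minus strand, RefSeq on GRCm38.p6 as for all coordinates here), was the best counted of the snoRNAs. C105F/+ libraries 2 to 6 had 9, 12, 7, 6 and 7 reads, and wild type libraries 1 to 6 had 94, 9, 13, 2, 17 and 22 reads. Wild type 1 stood far above every other library although it was the shallowest, and the remaining wild type libraries overlapped with C105F/+. Snord15b averaged 7.69 ± 2.54 scaled counts in C105F/+ (SD, n = 5) and 35.4 ± 57.9 in wild type (SD, n = 6), which is 4.61-fold lower in C105F/+. Without wild type 1 the group means differed 1.55-fold. Its fitted log2 fold change was -2.17 (SE 0.89). Its annotated span also lies inside an exon of the Rps3 transcript Rps3-204, which retains an intron, so reads of an unspliced Rps3 RNA could be assigned to it.

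Snord15a lies 3077 bases from Snord15b within Rps3 (chromosome 7, 99482785 to 99482932, minus strand) and overlaps no Rps3 exon. C105F/+ libraries had 2, 0, 0, 0 and 0 reads, against 24, 6, 4, 0, 2 and 0 reads in wild type libraries 1 to 6. Most reads came from wild type 1, and zeros occurred in both groups. Pooled over each group and per unit of size factor, Snord15a was 17.8-fold lower in C105F/+ (exact 95% interval 4.58 to 152, which covers counting error only). Without wild type 1 it was 6.63-fold lower (1.48 to 61.0) on 12 wild type reads. The ratio of mean scaled counts, which weights each library equally, was 42.1-fold lower, and 11.9-fold lower without wild type 1. Wild type 1 held 74.9% of the summed scaled counts of Snord15a and 60.9% of those of Snord15b.

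Snora78, the H/ACA snoRNA, lies in the noncoding host gene Snhg9 without overlapping its exons, on the strand opposite to Rps2 (chromosome 17, 24719676 to 24719832, minus strand). Reads numbered 4, 0, 5, 1 and 1 in C105F/+ libraries 2 to 6 and 26, 6, 2, 6, 4 and 2 in wild type libraries 1 to 6. The groups overlapped, and wild type 1 was again the highest library, with 59.1% of the gene's summed scaled counts. The means were 1.95 ± 2.08 scaled counts in C105F/+ and 10.3 ± 15.8 in wild type (SD), 5.28-fold lower in C105F/+. The fold was 2.00 without wild type 1 and 9.58 without C105F/+ 4.

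Snord35a differed from the other 3 snoRNAs in where its reads lay. It is a C/D snoRNA in an intron of the ribosomal protein gene Rpl13a (chromosome 7, 45126347 to 45126435, minus strand). Its reads were 3, 2, 2, 1 and 6 in C105F/+ and 7, 4, 12, 14, 6 and 7 in wild type 1 to 6. In scaled counts wild type 4 and wild type 3 were the highest at 14.7 and 13.8, and C105F/+ 6, at 7.26, was the 1 mutant library inside the wild type range. The means were 2.78 ± 2.54 scaled counts in C105F/+ and 9.17 ± 4.70 in wild type (SD), 3.29-fold lower in C105F/+ and 5.51-fold lower without C105F/+ 6.

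Summed over the 4 snoRNAs, C105F/+ libraries had 8.57 to 16.9 scaled counts and wild type libraries 23.0 to 245.6, with wild type 1 at the top and the next wild type library at 35.7. The groups did not overlap in this sum, a separation that the choice of these 4 rows favours and that carries no test. Mature histone messages are another class without a poly(A) tail, and 9 of the table's rows are histone genes of that kind by symbol. Wild type 1 was the highest library in 9 of these 9 rows, against 8.63% of all 417 rows and 22% of the lower rows, and in 5 of the 10 genes described here. It was not the highest for Snord35a (11.4 scaled counts, against 14.7 in wild type 4) or for Rn4.5s (9.76, against 16.3 in wild type 2). The summed histone level was 136 to 188 scaled counts in C105F/+ and 98.4 to 1698 in wild type, with the wild type libraries other than wild type 1 no higher than 550.3. What set wild type 1 apart was not tested.

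**Figure D2:**
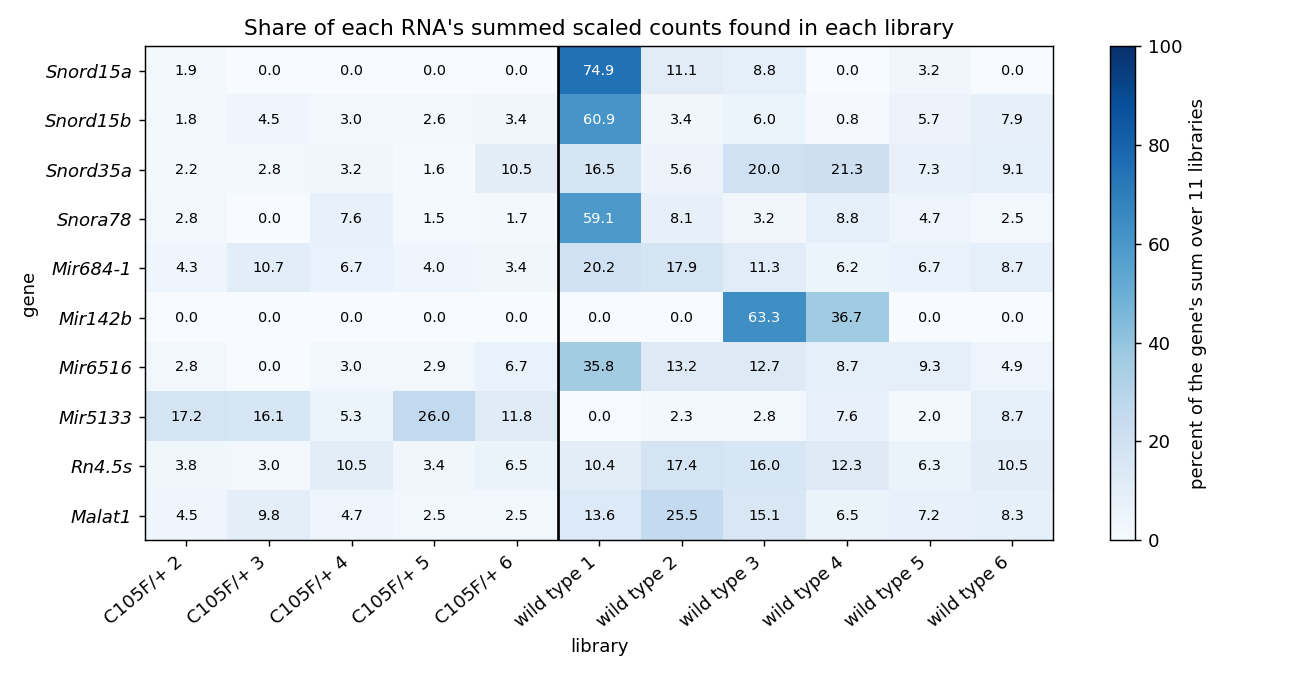
Share of each gene's summed scaled counts held by each library, in percent, with C105F/+ libraries left of wild type libraries. Wild type 1 holds 74.9% of Snord15a, 60.9% of Snord15b and 59.1% of Snora78, and wild type 3 and wild type 4 hold all of Mir142b, while Malat1 is spread over all libraries with at most 25.5% in 1 of them.

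Among the microRNA genes, Mir684-1 was the best counted. RefSeq places it at chromosome 2, 80628705 to 80628790, minus strand, opposite to introns of Dusp19 and Nup35. The deposited row pools 9 placements of this transcript on 7 chromosomes, so its reads cannot be assigned to 1 locus. Mir684-1 had 78.8, 196, 123, 72.8 and 61.7 scaled counts in C105F/+ 2 to 6, and in wild type a lowest of 114, a median of 184 and a highest of 371. C105F/+ 3 and C105F/+ 4 lay inside the wild type range and the other 3 mutant libraries lay below it. The means were 106.5 ± 55.3 scaled counts in C105F/+ and 217 ± 109 in wild type (SD), and the fitted log2 fold change was -1.03 (SE 0.46).

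Mir142b was present in wild type 3 and wild type 4 alone. The Mir142 locus is a source of microRNAs in blood cells, and Mir142b (chromosome 11, 87756841 to 87756955, minus strand) is antisense to Mir142 and to its host transcript Mir142hg. It had 0 reads in all 5 C105F/+ libraries and 0, 0, 77, 49, 0 and 0 reads in wild type 1 to 6. Against a floor of 3 reads over the C105F/+ group, Mir142b was at least 44.4-fold lower in C105F/+, and at least 19.5-fold lower without wild type 3. The wild type libraries themselves ranged from 0 to 88.6 scaled counts, so 4 of 6 wild type libraries could not be told from C105F/+ at this depth. Its span overlaps the exon of Mir142 and no annotated exon of Mir142hg. Whether the counting used strand is not stated in the labels or headers. The reads counted for Mir142b may therefore also come from Mir142 or from an unspliced Mir142hg RNA.

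Mir6516 and Mir5133 had small counts, at most 8 and 14 reads in any library, and stood in opposite directions. Mir6516 (chromosome 11, 117077348 to 117077457, plus strand) lies in exons of the noncoding host gene Snhg20 and overlaps the small Cajal body RNA Gm26083, so its reads may belong to either. It had 2, 0, 1, 1 and 2 reads in C105F/+ and 8, 5, 4, 3, 4 and 2 in wild type 1 to 6. In scaled counts C105F/+ 6, at 2.42, passed the lowest wild type library, at 1.79, and the means were 1.12 ± 0.860 in C105F/+ and 5.12 ± 4.02 in wild type (SD). The difference was 4.58-fold, and 3.17-fold without wild type 1.

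Mir5133 was the 1 gene of the 10 that was higher in C105F/+. It lies in exons of 3 transcripts of Glce, which encodes an epimerase of heparan sulfate (chromosome 9, 62122518 to 62122594, minus strand). Its reads numbered 14, 7, 2, 10 and 4 in C105F/+ libraries 2 to 6 and 0, 1, 1, 3, 1 and 4 in wild type libraries 1 to 6. C105F/+ 4, at 2.18 scaled counts, fell inside the wild type range and the other 4 mutant libraries lay above it. The means were 6.29 ± 3.13 scaled counts in C105F/+ and 1.61 ± 1.42 in wild type (SD), 3.90-fold higher in C105F/+. At the positions given here, neither Glce nor any other gene that overlaps 1 of the 10 has a row. A host transcript at these positions could therefore not be set beside its small RNA. The other placements of Mir684-1 and Rn4.5s were not checked for overlapping genes.

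Rn4.5s is a short RNA polymerase III transcript of rodents, placed by RefSeq at chromosome 6, 47654921 to 47655094, and the deposited row pools 10 placements of it, so a single copy cannot be read out. Reads numbered 7, 3, 9, 3 and 5 in C105F/+ libraries 2 to 6 and 6, 17, 13, 11, 7 and 11 in wild type libraries 1 to 6. C105F/+ 4 and C105F/+ 6 reached into the wild type range at 9.80 and 6.05 scaled counts, above the lowest wild type library at 5.90. The means were 5.09 ± 2.92 scaled counts in C105F/+ and 11.4 ± 3.80 in wild type (SD), 2.24-fold lower in C105F/+. Relative to its mean, the spread in wild type was the smallest of the 10 genes, with an SD over mean of 0.334.

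Malat1 was the abundant member of the group (chromosome 19, 5795690 to 5802672, minus strand). C105F/+ libraries 2 to 6 had 28937, 62765, 30300.0, 15864 and 16349 scaled counts, and the wild type libraries had a lowest of 41594, a median of 70372 and a highest of 163977. C105F/+ 3 lay inside the wild type range and the other 4 mutant libraries lay below every wild type library. Malat1 averaged 30843 ± 19088 scaled counts in C105F/+ and 81548 ± 46314 in wild type (SD), 2.64-fold lower in C105F/+, and the fitted log2 fold change was -1.40 (SE 0.51). The fold ran from 2.11 without wild type 2, the highest library, to 3.57 without C105F/+ 3. Per length, Malat1 stood at 47.2 to 162 FPKM in C105F/+ and 118 to 402 FPKM in wild type, and by mean FPKM it ranked 5 of 417.

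**Figure D3:**
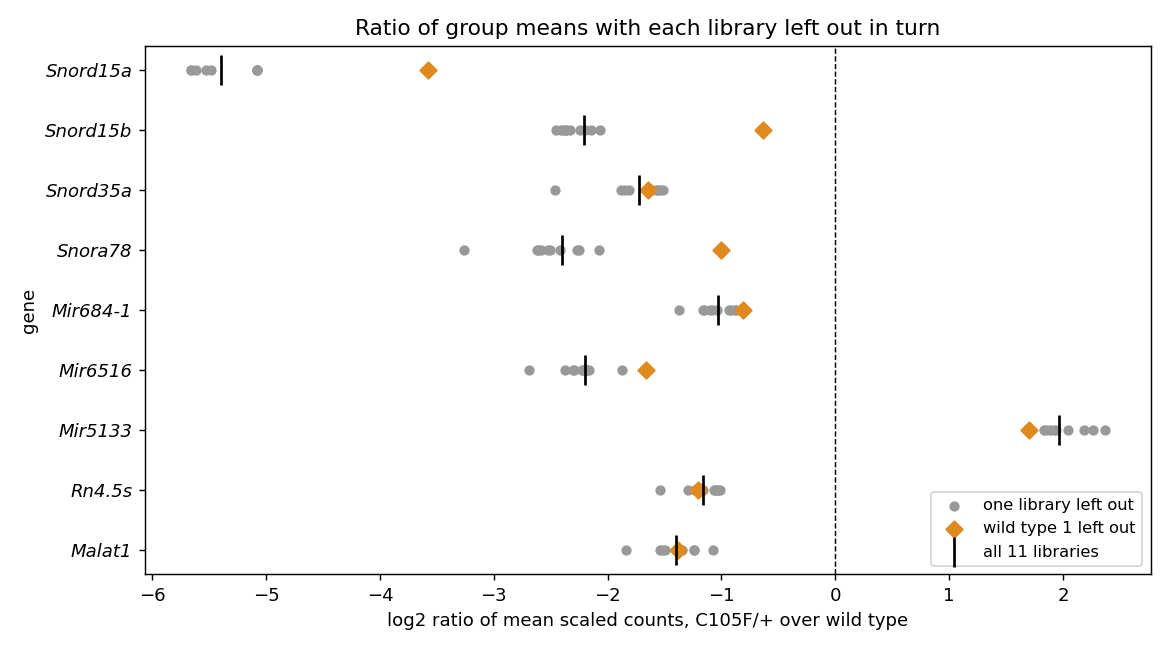
Log2 ratio of group mean scaled counts, C105F/+ over wild type, for 9 genes with all 11 libraries (black line), with 1 library left out (grey) and with wild type 1 left out (orange); Mir142b, at 0 in C105F/+, is not drawn, nor is Snord15a without C105F/+ 2. Malat1 runs from 2.11-fold to 3.57-fold lower, whereas Snord15b moves from 4.61-fold to 1.55-fold lower without wild type 1.

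Length set what could be read from the FPKM values. From the deposited count, the FPKM and the implied library total, a length behind each FPKM value was worked out. It was 7003 bases for Malat1, annotated in RefSeq at 6983, and 85.5 bases for Mir684-1, annotated at 86. In the 28 gene and library values with at least 20 reads the implied length was 0.991 to 1.03 times the length annotated in RefSeq. In the 64 values with fewer reads it was 1.01 to 9.46 times. FPKM values of these short genes thus follow their short annotated spans where reads are many, and at few reads the FPKM is lower than the deposited count would give. For Snord15a in C105F/+ 2, with a deposited count of 2, the implied length was 1.48 times the annotated length. The folds and intervals above take the deposited counts as they stand. The reason for that gap was not tested.

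**Figure D4:**
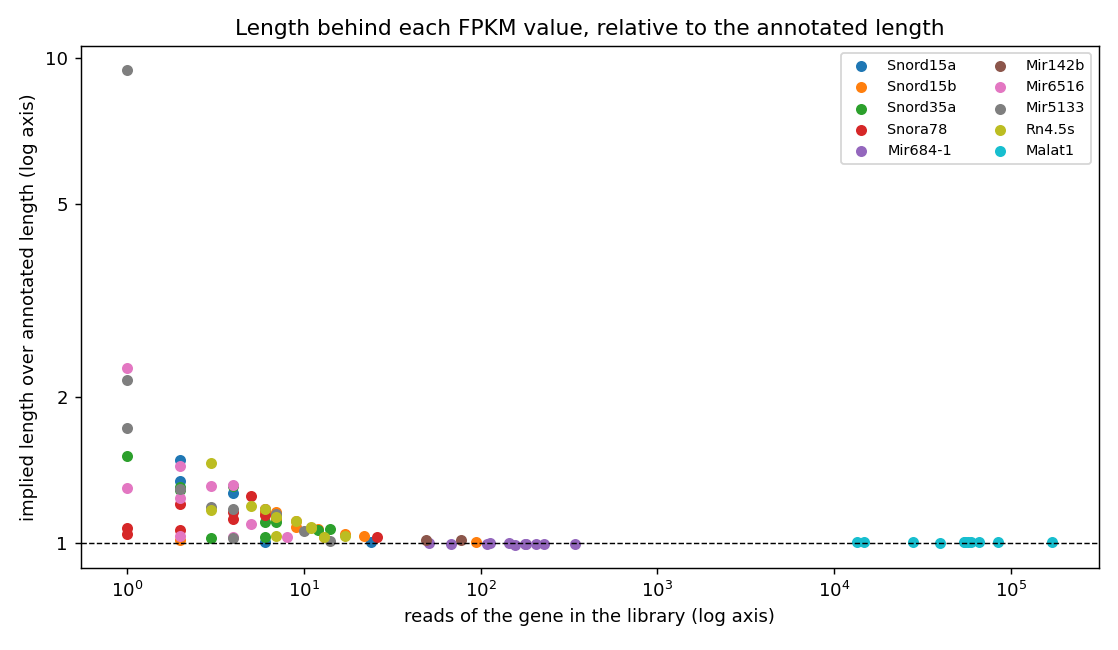
Implied length over annotated length for each gene and library with at least 1 read, against the gene's reads in that library (both axes log). Values from at least 20 reads lie between 0.991 and 1.03, and values from fewer reads spread up to 9.46.

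The relations below compare how the genes varied between libraries of the same genotype, with the group means removed. The group difference on which rows were chosen is thereby taken out, although the limit on p also depends on the spread within genotypes. All 45 pairs of the 10 genes, and each gene with the log2 size factor and with Jchain, were compared on log2(scaled count + 1) by an exact two-sided permutation test within genotype, 65 relations in all. None passed an adjusted p of 0.05, and 8 had an unadjusted p under 0.05. The leading pair was Mir684-1 and Malat1 (Pearson r = 0.90, exact p = 0.00104, adjusted p = 0.0677, n = 11), with a Spearman rho of 0.91 (exact p = 0.000405, adjusted p = 0.0263). Without C105F/+ 3 and wild type 1, the libraries farthest from the median of Mir684-1, r was 0.93. The adjusted p over the alternatives ran from 0.00903 without wild type 1 to 0.395 in wild type libraries alone, where r was 0.87. With the log2 size factor, r was -0.31 for Mir684-1 (exact p = 0.377, adjusted p = 0.722) and 0.019 for Malat1 (exact p = 0.959, adjusted p = 0.975), n = 11 each.

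**Figure D5:**
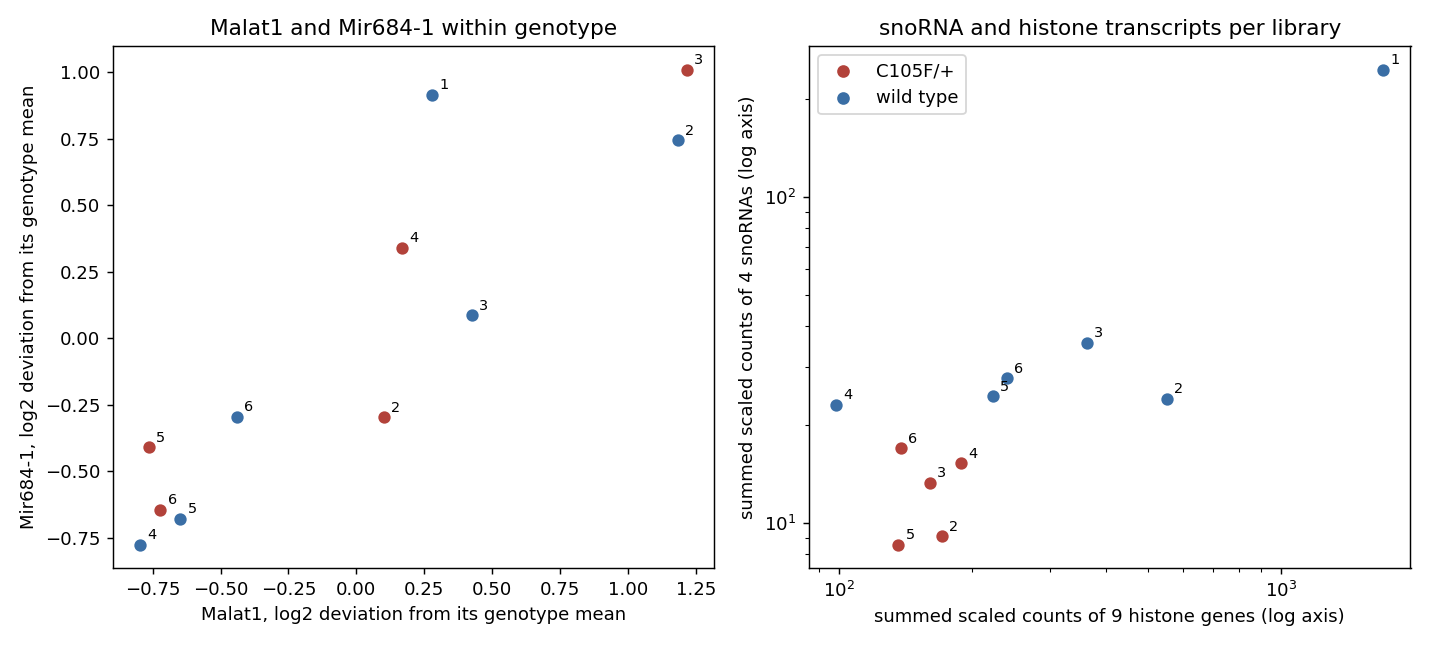
Left, Mir684-1 (y) against Malat1 (x) in the 11 libraries, each as log2(scaled count + 1) minus the mean of its genotype; right, summed scaled counts of the 4 snoRNAs (y) against those of the 9 histone genes (x), on log axes. Points are libraries numbered by replicate. Libraries with more Mir684-1 than their genotype's mean tended to have more Malat1 in both genotypes (Pearson r = 0.90 over 11 libraries), and wild type 1 stands apart on the right at 245.6 snoRNA and 1698 histone scaled counts.

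The 2 Rps3 snoRNAs did not keep such a relation. Snord15a and Snord15b had r = 0.71 (exact p = 0.119, adjusted p = 0.459, n = 11) with a rho of 0.098 (exact permutation test), and r was -0.65 without the 2 libraries farthest from the median, so the positive value rests on those libraries. Among the 335 rows with a mean scaled count of at least 10, the rows most like Snord15a and Snord15b across 11 libraries were the histone genes Hist1h4d and Hist1h2bk, with r of 0.84 to 0.89. By rank these relations were weaker, with rho of 0.75 and 0.64 for Snord15a and 0.42 and 0.37 for Snord15b, and wild type 1 is the highest library of both histone rows. The rows most like Snora78 were Hist1h2be (r = 0.76, rho = 0.60) and Igip (r = 0.74, rho = 0.53), which also peak in wild type 1. By Pearson r, Malat1 and Mir684-1 were each the other's most similar row, closely followed by Luc7l3, a splicing factor gene (r = 0.89 with both). By Spearman rho Luc7l3 was closer to each, at 0.97 with Mir684-1 and 0.95 with Malat1, against 0.91 for the pair. Luc7l3 had 3668 ± 1535 scaled counts in C105F/+ and 7479 ± 3560 in wild type (SD). For the remaining genes the most similar row had r of 0.61 to 0.79, Nap1l3 for Rn4.5s, Eif3j1 for Snord35a, Fcrla for Mir6516, Loxl4 for Mir142b and 4921507P07Rik for Mir5133.

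Of the listed proteins and partner RNAs of these pathways none has a row, so their values were not analysed here. Of 9 snoRNP proteins, 16 small RNA host genes, 10 microRNA processing genes, 10 nuclear noncoding RNA and paraspeckle genes and 11 genes of the RNA polymerase III class, 0 have a row. Of the other 28 rows with a noncoding accession 21 were lower and 7 higher in C105F/+, and wild type 1 was the highest library in 5 of them. Of all 417 rows 39.3% were lower, and wild type 1 was the highest library in 8.63% of all rows and 22% of the lower rows. The 28 rows too were chosen on the contrast, and nothing is read from these counts.

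Markers of other cell types were higher in C105F/+ by mean scaled count wherever they had a row, in a table where 60.7% of all 417 rows were higher. Rows were present for 6 of 10 plasma cell, 5 of 10 B cell, 3 of 11 T cell, 4 of 7 NK cell, 4 of 8 neutrophil and 2 of 5 erythroid markers, beside Itgae. The authors' deposited table has an adjusted p under 0.05 for 4 of the 6 plasma cell, 4 of the 5 B cell and 2 of the 3 T cell rows. It has one for 1 of the 4 NK cell, 1 of the 4 neutrophil and 0 of the 2 erythroid rows. A row with no adjusted p would count here as not under 0.05. Of the 295 rows with an adjusted p 37.6% were under 0.05, and the marker rows too were chosen on the contrast. The summed levels below overlapped between the genotypes for every list. Summed plasma cell markers stood at 14609 to 204419 scaled counts in C105F/+ and 16944 to 26295 in wild type. The summed B cell level was 1829 to 9537 in C105F/+ and 1492 to 3833 in wild type, and the T cell level was 200.1 to 1266 in C105F/+ and 152 to 211 in wild type. NK cell markers summed to 38.9 to 905 in C105F/+ and 43.0 to 262 in wild type, neutrophil markers to 704 to 5582 in C105F/+ and 578 to 1128 in wild type, and erythroid markers to 378 to 4085 in C105F/+ and 184 to 1283 in wild type. Jchain, the plasma cell transcript that joins antibodies into polymers, was at 13489 scaled counts in C105F/+ 3 and 103802 to 196308 in the other 4 mutant libraries, and C105F/+ 3 was also the mutant library with the most Malat1 and Mir684-1. Within genotype, r with Jchain was -0.63 for Malat1 (exact p = 0.0356, adjusted p = 0.33) and -0.64 for Mir684-1 (exact p = 0.0123, adjusted p = 0.26), n = 11 each. Without the 2 libraries farthest from the median these r values were -0.28 and -0.38, so the relations rest on those libraries. The part of these cells in the lower levels was not tested.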

How the data were processed

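Per the labels' protocols, spleens were digested with collagenase, dendritic cells were enriched by immunomagnetic depletion of other cells, and directional libraries were made from 75 ng of total RNA bound to oligo(dT) beads. The submitters' processing notes name the aligners HISAT2 2.1.0 and Bowtie2 2.3.4.1, the assembler StringTie 2.1.3b, the read tools Trimmomatic 0.38 and FastQC 0.11.7, DESeq2 and the mouse build mm10, with no settings. Per the file headers, the authors deposited raw read counts, FPKM values and log2 normalized values for each library. How the log2 values were transformed is not stated. The authors' deposited comparison holds a signed fold, a mean that is a signal on the scale of counts over size factors, a standard error and a statistic (score columns), a p-value and an adjusted p-value. The adjusted p-value is missing in part of the rows and was left missing.

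Size factors were recovered from the deposited means by least squares (largest relative error 1.94e-14), because the sum over selected rows is no depth. Library totals were implied from counts, FPKM and transcript lengths (81 to 148 rows each with at least 100 counts). Counts were fitted with edgeR 4.0.16 in R 4.3.3 (quasi-likelihood, all 11 libraries, the recovered factors), and its filter on low counts kept 322 of 417 rows. Malat1, Snord15b and Mir684-1 passed it, and the other 7 genes are described by ratios of mean scaled counts, by a pooled rate too for Snord15a and by a bound for Mir142b. The script was tested on simulated data. Relations within genotype were tested over all 86400 permutations with Benjamini-Hochberg adjustment over 65. Likeness to other rows is Pearson r of log2(scaled count + 1) after removing group means, and at most 2 rows per gene are named by that rule, beside Jchain and the listed markers. Luc7l3 comes from that rule, and the 9 histone rows are all symbols starting with Hist. Intervals and floors cover counting error only. Lists were counted by symbol. No pair of libraries agreed within sampling noise (lowest chi-square per degree of freedom 13.5). The genes and lists were chosen with earlier results of these data known.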

Additional observations from a re-analysis of the deposited data

Results flagged for a closer look

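In 6 of 19 groups of 5 or 6 libraries, 1 library stood far from the others by Dixon's criterion, which chance alone meets in about 1 in 20 groups of normal values. That rate does not hold for small counts with ties. In C105F/+, library 2 had 1.01 scaled counts of Snord15a, which is 2 reads, and the other 4 libraries had none, so any single library with a read would have stood out. C105F/+ 6 had 7.26 scaled counts of Snord35a, where the next mutant library had 2.18. Wild type 1 accounted for 4 of the 6. It had 39.0 scaled counts of Snord15a, where the next wild type library had 5.76, and 152.9 of Snord15b, where the next had 19.7. It had 42.3 scaled counts of Snora78, where the next wild type library had 6.28, and 13.0 of Mir6516, where the next had 4.80. The cause of these gaps was not tested.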

How the results depend on the processing

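The counts of 9 lower and 1 higher gene held under all 20 alternatives: other scalings, tools, filters and units, and each library left out. The 10 genes were chosen on this contrast, which favours an unchanged direction, so these counts carry no test. The median log2 fold change of the 10 genes was -0.14 in the deposited log2 normalized values, which are shrunken at low counts. That of all fitted rows was 1.11, and 0.16 with TMM factors from the rows, 0.17 in log2(FPKM + 1) and 0.27 in the deposited log2 values; TMM and median-of-ratios factors from the rows shifted it by -0.96 and -0.75. With either of these factors 2 genes, Snord35a and Mir6516, had groups that did not overlap, as did 12.7% (TMM) and 11% (median-of-ratios) of all rows, and this count ran from 0 to 2 with 1 library left out. Malat1 separated without C105F/+ 3 (41.2% of all rows did), Mir5133 without C105F/+ 4 (17.0%), Snord35a and Mir6516 without C105F/+ 6 (16.5%), and Mir6516 without wild type 6 (17.5%). The number of relations past an adjusted p of 0.05 was 1 with Spearman ranks, 0 to 1 with 1 library left out (1 without wild type 1) and 1 without wild type 1 and wild type 4 together, a setting chosen after seeing the data; the pair was Mir684-1 and Malat1 each time. Of 189 single-gene values under alternatives, 0 changed direction and 16 moved by more than their spread. The choice of rows again favours an unchanged direction. As log2 ratios of mean FPKM, Mir684-1 stood at -0.86 and Malat1 at -1.24, against -1.03 and -1.40 in mean scaled counts. Snord15b has no fitted value without wild type 1, 3, 5 or 6 or under the block, where it fell below the filter.

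The labels do not say whether replicate numbers pair the libraries. Deviations from the genotype mean correlated between -0.11 and 0.15 for same-numbered libraries and between -0.29 and 0.20 for the others. These rows were chosen on the genotype contrast, and such values cannot decide whether the numbers pair animals. With a replicate block over numbers 2 to 6, which leaves out wild type 1, the log2 fold change was -1.36 for Malat1 and -0.82 for Mir684-1, and their median was -1.09. Genes with under 10 mean scaled counts rest on small counts in most libraries. At that depth a difference between libraries of a few reads was not detectable.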

Other observations

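Snhg15, a noncoding gene that hosts snoRNAs, was outside the lists used and was chosen after its values were seen. C105F/+ libraries had 296 to 881 scaled counts of Snhg15, against 653 to 4240 in wild type, where wild type 4 was the highest library and the median was 843. Wild type 4 was also the highest library for Snord35a, and it was the highest in 17.7% of all 417 rows and in 45.1% of the rows lower in C105F/+.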
